A study of Mus musculus with 12 samples.

Results

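The 9 genes described here are 3 mouse gasdermin A genes, *Gsdma*, *Gsdma2* and *Gsdma3*, and 6 genes of the inflammasome pathway, *Gsdmd*, *Nlrp3*, *Pycard*, *Casp1*, *Casp4* and *Aim2*. They were chosen by symbol from the 35976 genes listed in the 12 count files, and all 9 were among the 18853 genes that passed the filter on low counts. The scars came from the back skin of male mice aged 8 to 12 weeks, with 3 mice in each of 4 groups: sham and traction scars of Tem1WT/WT mice, and sham and traction scars of Tem1lacZ/lacZ mice. In Tem1lacZ/lacZ mice, backcrossed to C57BL/6J, a lacZ reporter replaces *Tem1* (listed as *Cd248*) in every cell, so a difference between genotypes is not tied to a cell type. Each mouse received a 1.5-cm wound, and after 6 days a device was fixed over it. Traction scars were stretched by 1 mm/day to 8 mm in all, and sham scars wore the device unstretched. The measurement was the number of RNA-seq reads assigned to each gene, given as TMM-normalized counts scaled to 1000000 per library (CPM), with the SD over the 3 mice of a group.

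Gasdermins are proteins whose N-terminal part, once cut free, forms pores in membranes. *Gsdmd* encodes the gasdermin that inflammatory caspases cut during pyroptosis, a lytic form of cell death that releases interleukin-1β. *Nlrp3* and *Aim2* encode sensors, of cell damage and of cytosolic DNA, which join the adaptor encoded by *Pycard* (ASC) and the protease caspase-1 (*Casp1*) into an inflammasome. *Casp4* encodes mouse caspase-11, the cytosolic receptor for bacterial lipopolysaccharide. The gasdermin A genes are instead expressed in the epithelium of skin, hair follicle and stomach, and changes in the *Gsdma3* protein cause hair loss in mice. A streptococcal protease can cut gasdermin A in keratinocytes, which is a route to pore formation without a caspase.

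The 12 libraries held 41536788 to 64644293 counts. *Cd248* was at 149.8 ± 38.3 CPM in sham and 209 ± 123 CPM in traction scars of Tem1WT/WT mice, and at 0.122 ± 0.059 and 0.120 ± 0.124 CPM in the corresponding Tem1lacZ/lacZ scars (SD, n = 3), which follows the labels. Replicate 1 of the Tem1WT/WT traction group stood apart from the rest. The summed level of 10 neutrophil markers was 6810 CPM in that library against 610 and 287 CPM in the other traction scars of Tem1WT/WT mice. It was 62.6 to 97.8 CPM in the Tem1WT/WT sham group, 172 to 191 CPM in the Tem1lacZ/lacZ sham group and 249 to 530 CPM in the Tem1lacZ/lacZ traction group. Of 8 of these markers tested between genotypes in sham scars, 5 had a positive and 3 a negative log2 fold change, and 0 were called. *S100a8* and *S100a9* held most of the Tem1lacZ/lacZ sham sum, at 32.9 to 44.7 and 89.8 to 109 CPM. In Tem1WT/WT sham scars they were at 3.49 to 22.5 and 8.51 to 45.4 CPM. They also held most of the sum in Tem1WT/WT traction replicate 1, at 1296 and 3935 CPM. *Ly6g*, the defining surface marker of mouse neutrophils, was at 3.76 CPM in that library, at no more than 0.177 CPM elsewhere and at 0 in 7 of the 12 libraries. T lymphocyte markers summed to 94.7 CPM there and to no more than 48.7 CPM elsewhere. With traction in Tem1WT/WT mice, 3 of the 5 T lymphocyte markers tested had a positive and 2 a negative log2 fold change, and 0 were called. In the same replicate 1, the interferon-induced genes *Gbp2*, *Gbp5* and *Irf1*, named after their values were seen, were 15.3, 17.4 and 11.5 times their highest level in the other 11 libraries. The other guanylate-binding genes listed had a smaller excess. *Gbp3* and *Gbp7* were at 116 and 126 CPM there and at no more than 53.2 and 64.4 CPM elsewhere. Calls of the members that were lost without this library are named with the comparison. In whole scars, fewer cells of a type and less RNA per cell cannot be told apart.

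The gasdermin A genes lie next to each other on the plus strand of mouse chromosome 11 (GRCm38, GENCODE vM21), *Gsdma3* at chr11:98626360-98638226, *Gsdma2* at chr11:98646759-98657964 and *Gsdma* at chr11:98664351-98677708. Their coding sequences are alike over their whole length. *Gsdma* and *Gsdma2* shared 90.9% of aligned coding bases, *Gsdma* and *Gsdma3* 89.8%, and *Gsdma2* and *Gsdma3* 89.0%. Over whole annotated transcripts, not the coding part alone, the longest run of identical bases was 147 for *Gsdma* with *Gsdma2*. It was 78 for *Gsdma* with *Gsdma3* and 70 for *Gsdma2* with *Gsdma3*. The split of reads between *Gsdma* and *Gsdma2* is therefore the least certain. Of the 100-base stretches of the annotated *Gsdma* transcript, 1.83% also occur in transcripts of *Gsdma2*. The authors' handling of reads with several matches is not given in the sources used here. Before trimming, the paper's paired-end reads were longer than the shared run of 147 bases. An untrimmed read could therefore not match annotated transcripts of both genes exactly. The first 90 coding bases are shown because they make this likeness visible. Capitals mark bases that differ from *Gsdma*, 2 in *Gsdma2* and 5 in *Gsdma3*.
Gsdma: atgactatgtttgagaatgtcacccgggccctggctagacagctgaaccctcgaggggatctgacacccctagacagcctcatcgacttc
Gsdma2: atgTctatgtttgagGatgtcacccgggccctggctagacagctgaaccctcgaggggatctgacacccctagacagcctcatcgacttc
Gsdma3: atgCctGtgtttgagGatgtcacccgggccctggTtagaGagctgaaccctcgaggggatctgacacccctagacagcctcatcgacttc

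Levels of different genes were compared as CPM per kilobase of merged exons, a length that can exceed that of the transcript in use. *Gsdma* was the highest of the 9 genes, with a median of 91.5 CPM per kilobase and a range of 37.4 to 159.8 over the 12 libraries. *Casp1* followed at 26.6 and *Pycard* at 15.1 CPM per kilobase. *Gsdma* was above *Casp1*, and *Casp1* above *Pycard*, in 12 of 12 libraries. The next genes were *Gsdmd* at 11.6, *Gsdma3* at 7.18, *Casp4* at 4.84 and *Aim2* at 3.25 CPM per kilobase. Their order was not the same in every scar: *Pycard* was above *Gsdmd* in 9, *Gsdmd* above *Gsdma3* in 8, *Gsdma3* above *Casp4* in 8 and *Casp4* above *Aim2* in 9 of 12 libraries. *Nlrp3* had a median of only 0.758 CPM per kilobase but reached 123 in a single scar, the widest range of the 9 genes. *Gsdma2* was the lowest at 0.428 CPM per kilobase, with 7 to 193 counts per library. Within the gasdermin A genes, *Gsdma* took 87.0% to 97.4% of the counts and *Gsdma3* 2.18% to 11.5%.

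**Figure D1:**
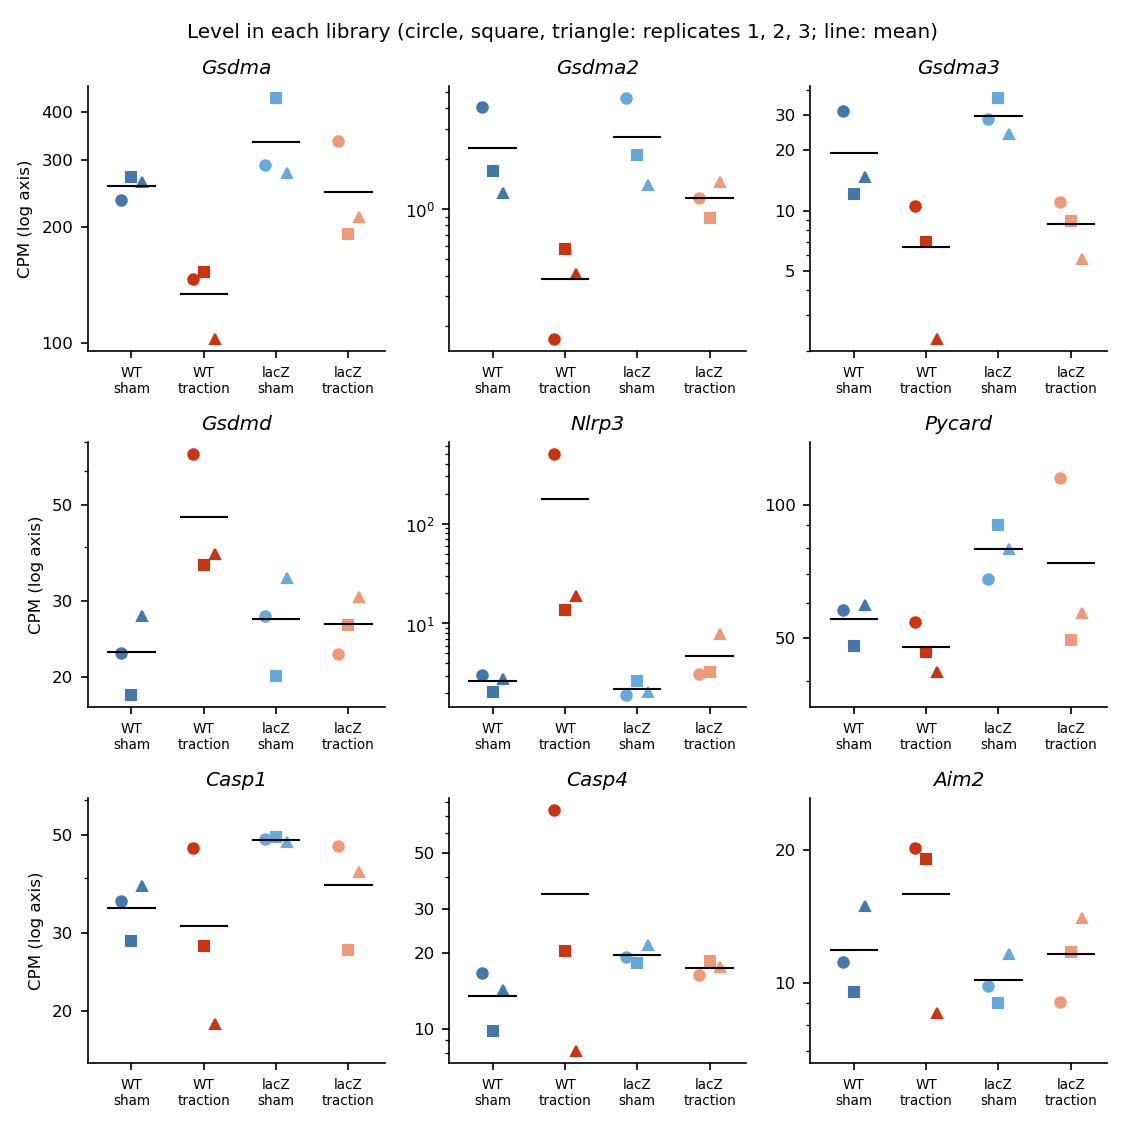
Level of each of the 9 genes in each of the 12 libraries, in CPM on a log axis that differs between panels, by genotype and treatment (n = 3 mice per group; symbols are replicates 1, 2 and 3, and lines are group means). The 3 gasdermin A genes are lower in the Tem1WT/WT traction group than in its sham group in every library, and *Nlrp3* reaches 501 CPM in a single Tem1WT/WT traction scar.

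Traction in Tem1WT/WT mice was compared with sham to see which of these genes respond to stretching of a scar. *Gsdma* and *Gsdma2* were lower and *Gsdmd* and *Nlrp3* were higher after traction, by edgeR's quasi-likelihood test with Benjamini-Hochberg adjustment over all 18853 genes. *Gsdma3*, *Pycard*, *Casp1*, *Casp4* and *Aim2* did not pass the test. That is 4 of 9 genes, where 9.15% of all genes tested passed. The groups did not overlap for 5 of the 9 genes, against 35.7% of all genes tested. The median log2 fold change was −1.55 over the 3 gasdermin A genes and 0.73 over the 6 inflammasome genes, beside −0.01 over all genes tested.

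*Gsdma*, the main gasdermin A gene of these scars, was at 236, 271 and 263 CPM in the sham scars of Tem1WT/WT mice and at 147, 153 and 102 CPM after traction. Every traction scar lay below every sham scar. The log2 fold change was −0.94 ± 0.26 (SE, adjusted p = 0.0461). *Gsdma2* was at 4.04, 1.68 and 1.24 CPM in sham scars and at 0.167, 0.574 and 0.411 CPM after traction. These values rest on 76 to 186 counts in sham and 7 to 26 counts in traction libraries. The groups did not overlap, and the log2 fold change was −2.58 ± 0.62 (SE, adjusted p = 0.0355). *Gsdma3* was at 31.2, 12.1 and 14.7 CPM in sham scars and at 10.6, 6.98 and 2.28 CPM after traction. The groups did not overlap here either, but the change of −1.55 ± 0.51 on the log2 scale missed the threshold (adjusted p = 0.0739). DESeq2 called *Gsdma3* (−1.53, adjusted p = 0.0198), and limma-voom did not call *Gsdma2* (−2.47, adjusted p = 0.0555).

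Markers of hair follicle and sebaceous gland moved along with the gasdermin A genes in Tem1WT/WT scars. The summed level of 11 markers of inner root sheath and hair shaft, the keratins and trichohyalin of a growing hair, was 16333 to 30039 CPM in sham and 4340 to 7955 CPM in traction scars. All 11 had a negative log2 fold change and 3 of them were called lower. The 6 sebocyte markers summed to 319 to 438 CPM in sham and 67.7 to 334 CPM in traction scars, with 6 of 6 negative and 2 called lower. No marker of either list was at 0 in any group. Differentiated keratinocyte markers summed to 1668 CPM in traction replicate 1, against 7246 and 9819 CPM in the other traction scars and 4941 to 7852 CPM in sham scars. In the other direction, the summed level of 6 fibroblast markers was 12471 to 16927 CPM in sham and 19989 to 54239 CPM in traction scars, with 5 of 6 positive and 1 called higher. The 5 basal keratinocyte markers summed to 6725 to 9958 CPM in sham and 7904 to 17009 CPM in traction scars. Of these, 3 had a positive and 2 a negative log2 fold change, and 0 were called. The part of all these markers in the gasdermin A result was not tested. In the Tem1lacZ/lacZ sham group, the follicle sum ranged from 4220 CPM in replicate 1 to 23148 CPM in replicate 2. In replicates 1, 2 and 3 of that group *Gsdma* was at 292, 436 and 278 CPM. *Gsdma2* was at 4.59, 2.11 and 1.39 CPM and *Gsdma3* at 28.6, 36.4 and 24.2 CPM there. In the Tem1lacZ/lacZ traction group the follicle sum was 8384 to 15015 CPM, within the range of the sham group of that genotype. With traction in that genotype 2 of the 11 follicle markers had a positive and 9 a negative log2 fold change, and 0 were called. *Gsdma3* was at 11.1, 8.89 and 5.75 CPM in those traction scars. The sebocyte sum was 315 to 566 CPM in sham and 278 to 320 CPM in traction scars of that genotype. How the gasdermin A levels relate to these sums was not tested.

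*Nlrp3*, the sensor of the best-known inflammasome, showed the widest change. It was at 3.02, 2.07 and 2.77 CPM in sham scars of Tem1WT/WT mice and at 501, 13.6 and 19.0 CPM after traction. Replicate 1 was 26.4 times the highest of the other 11 libraries, but replicates 2 and 3 were also above every sham scar. The log2 fold change was 6.09 ± 1.29 (SE, adjusted p = 0.0311). Without replicate 1 it was 2.62 ± 0.40 (adjusted p = 0.0344). With all 12 libraries limma-voom gave 4.29 and did not call it (adjusted p = 0.0850), and DESeq2 gave no adjusted p for *Nlrp3* in any comparison. The same library held the highest neutrophil sum, and 8 of 8 neutrophil markers tested had a positive log2 fold change, 4 of them called higher. The part of these markers, and of the T lymphocyte and interferon-induced genes that were highest in the same scar, in the *Nlrp3* and *Gsdmd* results was not tested. The macrophage and monocyte sum, from 12 markers, was 4243 to 5038 CPM in traction and 2734 to 4569 CPM in sham scars, and 0 of 12 were called.

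**Figure D2:**
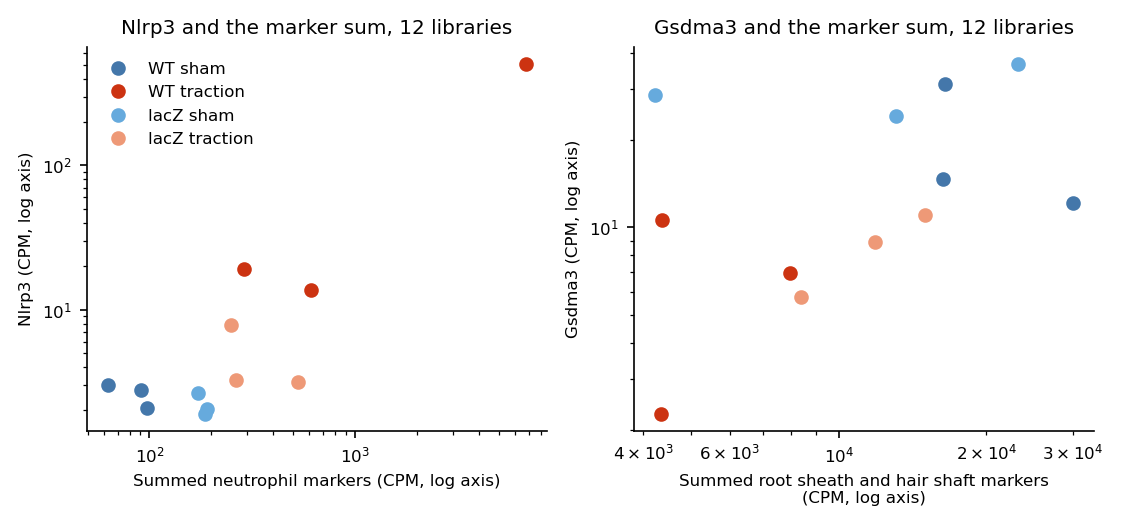
*Nlrp3* against the summed neutrophil markers (left) and *Gsdma3* against the summed root sheath and hair shaft markers (right), in CPM on log axes, with 1 point for each of the 12 libraries coloured by group. The Tem1WT/WT traction scar with 501 CPM of *Nlrp3* also has the highest neutrophil sum, 6810 CPM, and the Tem1WT/WT traction scars have follicle sums of 4340 to 7955 CPM, below the 16333 to 30039 CPM of the Tem1WT/WT sham scars.

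*Gsdmd*, the pore former that acts downstream of the inflammatory caspases, was at 22.8, 18.2 and 27.7 CPM in sham scars and at 65.8, 36.3 and 38.6 CPM after traction in Tem1WT/WT mice. All traction scars were above all sham scars. The log2 fold change was 1.03 ± 0.27 (SE, adjusted p = 0.0415). Without replicate 1 it was 0.69 ± 0.24 and no longer passed (adjusted p = 0.107). *Casp4* was at 16.7, 9.81 and 14.2 CPM in sham and at 74.0, 20.4 and 8.16 CPM in traction scars. The traction scars of replicates 1 and 2 were above and that of replicate 3 below the whole sham range. The log2 fold change of 1.33 ± 0.58 missed the threshold (adjusted p = 0.147) and was 0.06 ± 0.34 without replicate 1.

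The adaptor, the shared protease and the DNA sensor had small differences. *Pycard* was at 58.0, 48.1 and 59.3 CPM in sham and 54.5, 46.5 and 42.0 CPM in traction scars of Tem1WT/WT mice, a log2 fold change of −0.21 ± 0.28 (SE, adjusted p = 0.638). *Casp1* was at 35.5, 28.8 and 38.4 CPM in sham and at 46.8, 28.1 and 18.7 CPM after traction (−0.13 ± 0.29, adjusted p = 0.789). *Aim2* was at 11.1, 9.52 and 14.9 CPM in sham and at 20.2, 19.0 and 8.53 CPM after traction (0.42 ± 0.31, adjusted p = 0.374). The groups overlapped for all 3 genes. On the opposite strand *Aim2* overlaps *Cadm3* and *Pycard* overlaps *Gm45205*. The strand setting of the counting is not given in the sources used here, so reads of such partners may not have been told apart.

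These calls lay close to the threshold and depended on single libraries. Without Tem1WT/WT sham replicate 1 or 2, or Tem1lacZ/lacZ sham replicate 3, 0 of the 9 genes were called for traction in Tem1WT/WT mice. Without Tem1WT/WT traction replicate 1 only *Nlrp3* was called, and without Tem1WT/WT sham replicate 3 only *Gsdma2*. Without Tem1WT/WT traction replicate 3, *Nlrp3* and *Casp4* were called. Without Tem1lacZ/lacZ sham replicate 1, or Tem1lacZ/lacZ traction replicate 2 or 3, *Gsdma2* and *Nlrp3* were called. The number of all genes called moved with them, from 1725 with 12 libraries to between 0 and 2861 with 11. The direction of the 4 genes called did not change in any of these fits.

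**Figure D3:**
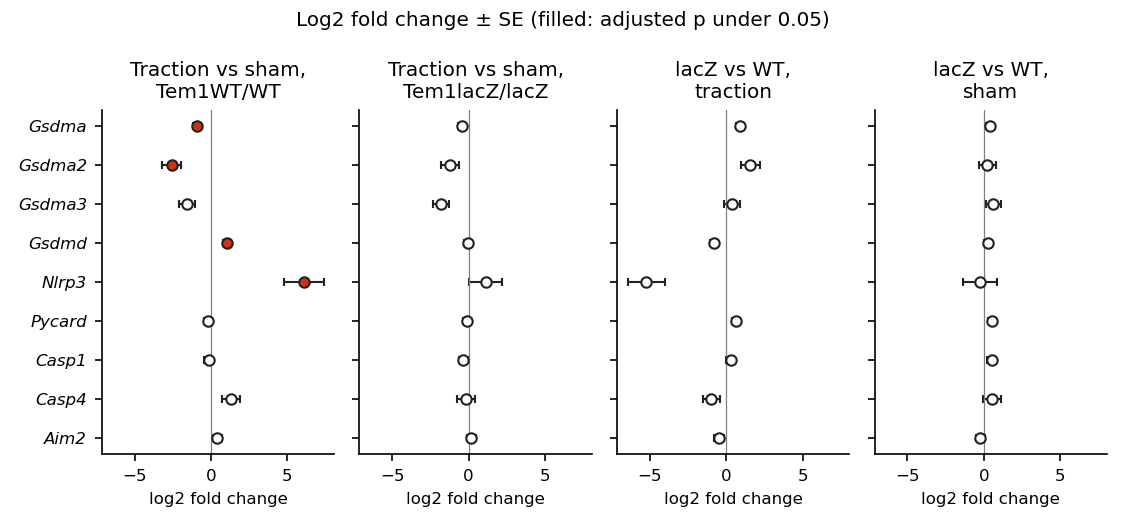
Log2 fold change ± SE of the 9 genes in the 4 pairwise comparisons, from the edgeR fit of all 12 libraries (filled symbols, adjusted p under 0.05). Filled symbols appear in the comparison of traction with sham in Tem1WT/WT mice and in no other panel, and *Nlrp3* has the largest value there, 6.09.

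Traction was also compared with sham in Tem1lacZ/lacZ mice. By edgeR 0 of 9 genes were called, as were 0% of all genes tested, and limma-voom called 0 of 9 and DESeq2 0 of the 8 members other than *Nlrp3*. At an unadjusted p under 0.05 edgeR gave 1 of 9 members and 1530 of 18853 genes. The member was *Gsdma3*, at 28.6, 36.4 and 24.2 CPM in sham and 11.1, 8.89 and 5.75 CPM in traction scars. Its groups did not overlap, and its log2 fold change of −1.80 ± 0.51 stood beside −1.55 ± 0.51 in Tem1WT/WT mice (unadjusted p = 0.00511, adjusted p = 0.598). In all, the groups did not overlap for 3 of 9 members, against 12.9% of all genes tested. The others were *Nlrp3*, at 1.90, 2.63 and 2.06 CPM in sham and 3.13, 3.26 and 7.88 CPM in traction scars, and *Casp1*, at 49.0, 49.5 and 48.2 CPM in sham and 47.3, 27.5 and 41.2 CPM in traction scars. Their log2 fold changes were 1.12 ± 1.09 and −0.34 ± 0.29 (adjusted p = 0.786 and 0.758).

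The remaining members overlapped between sham and traction in Tem1lacZ/lacZ mice. *Gsdma* was at 292, 436 and 278 CPM in sham and 337, 193 and 213 CPM in traction scars (−0.44 ± 0.25, adjusted p = 0.654). *Gsdma2* was at 4.59, 2.11 and 1.39 CPM in sham and at 1.16, 0.877 and 1.45 CPM in traction scars (−1.21 ± 0.58, adjusted p = 0.622). *Gsdmd* lay between 20.1 and 34.1 CPM in these 6 scars, with a log2 fold change of −0.04 ± 0.27 (adjusted p = 0.977). *Casp4* was 16.4 to 21.5 CPM, a narrow range beside the 8.16 to 74.0 CPM of the Tem1WT/WT traction group.

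The genotypes were compared within traction scars, the setting in which the loss of *Tem1* could alter the response to stretching. By edgeR 0 of 9 genes were called, where 0.106% of all genes tested were. At an unadjusted p under 0.05 there were 5 of 9 members and 4930 of 18853 genes. DESeq2's Wald test called 2 of 8, *Gsdma* and *Gsdmd*, and limma-voom 0 of 9. The groups did not overlap for 4 members, against 26.6% of all genes tested. *Gsdma* (log2 fold change 0.89 ± 0.26, SE, adjusted p = 0.0952) and *Gsdma2* (1.59 ± 0.61, adjusted p = 0.141) were at higher values in all Tem1lacZ/lacZ than in all Tem1WT/WT traction scars. *Gsdmd* (−0.82 ± 0.27, adjusted p = 0.111) and *Nlrp3* (−5.22 ± 1.23, adjusted p = 0.0891) were at lower values in all of them. Without Tem1WT/WT traction replicate 2 the *Nlrp3* difference was called, and without replicate 1 of that group 0 members were called. In the fit without replicate 1 the difference was −1.73 ± 0.39 for *Nlrp3* (adjusted p = 0.156) and −0.46 ± 0.24 for *Gsdmd* (adjusted p = 0.295).

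In sham scars the genotypes differed in 0 of 9 members by edgeR, and 0.0106% of all genes tested were called. At an unadjusted p under 0.05 edgeR also gave 0 members, and 2198 of 18853 genes, and limma-voom called 0 of 9 and DESeq2 0 of 8. The groups did not overlap for 4 of 9, against 26.8% of all genes tested. *Gsdma*, *Pycard*, *Casp1* and *Casp4* each had their 3 Tem1lacZ/lacZ sham values above the 3 Tem1WT/WT values. *Casp1*, for example, was at 48.9 ± 0.6 CPM in Tem1lacZ/lacZ and 34.3 ± 4.9 CPM in Tem1WT/WT sham scars (SD, n = 3), a log2 fold change of 0.51 ± 0.29 (SE, adjusted p = 0.493). *Pycard* was at 79.4 ± 11.0 against 55.1 ± 6.1 CPM, with 0.53 ± 0.28 (adjusted p = 0.463).

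The difference between genotypes in the response to traction was tested directly as an interaction. Again 0 of 9 members and 0% of all genes tested were called by edgeR, 0 of 9 members by limma-voom and 0 of 8 by DESeq2. The 2 members with an unadjusted p under 0.05 were *Nlrp3* and *Gsdmd*, beside 1680 of 18853 genes. The log2 response of Tem1lacZ/lacZ less that of Tem1WT/WT mice was −4.97 ± 1.57 for *Nlrp3* (SE, unadjusted p = 0.0092) and −1.07 ± 0.38 for *Gsdmd* (unadjusted p = 0.0162), both with an adjusted p of 0.548. Without Tem1WT/WT traction replicate 1 these values were −1.46 ± 0.53 and −0.70 ± 0.33 (adjusted p = 0.558 and 0.627). For *Gsdma3* the interaction was −0.25 ± 0.71 (adjusted p = 0.937), and 0.30 ± 0.67 without that library (adjusted p = 0.947). A call in Tem1WT/WT mice without a call in Tem1lacZ/lacZ mice was therefore not shown to be a difference between the genotypes.

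Averaging the effect of traction over both genotypes used all 12 libraries and brought in *Gsdma3*. All 3 gasdermin A genes were lower, with log2 fold changes of −0.69 ± 0.18 for *Gsdma* (SE, adjusted p = 0.0413), −1.90 ± 0.42 for *Gsdma2* (adjusted p = 0.0287) and −1.67 ± 0.36 for *Gsdma3* (adjusted p = 0.0280). Of the 6 inflammasome genes only *Nlrp3* was called, at 3.60 ± 0.82 (adjusted p = 0.0309), while *Gsdmd* was at 0.50 ± 0.19 (adjusted p = 0.105). limma-voom called the gasdermin A genes and gave 2.65 for *Nlrp3* (adjusted p = 0.163). That made 4 of 9 members, where 9.73% of all genes tested were called. The same 4 were called without Tem1WT/WT traction replicate 1, with *Nlrp3* then at 1.89 ± 0.27 (adjusted p = 0.0194). Without Tem1WT/WT sham replicate 1 or 2, Tem1lacZ/lacZ sham replicate 2 or Tem1lacZ/lacZ traction replicate 2 or 3, 0 were called. Without Tem1WT/WT sham replicate 3, *Gsdma2* and *Gsdma3* were called, without Tem1lacZ/lacZ sham replicate 1 *Gsdma3*, and without Tem1lacZ/lacZ sham replicate 3 *Gsdma2*. *Gsdma* alone was lost without Tem1WT/WT traction replicate 3.

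A test for any difference among the 4 groups gave the same 4 members, *Gsdma* (adjusted p = 0.0376), *Gsdma2* (adjusted p = 0.0461), *Gsdma3* (adjusted p = 0.0456) and *Nlrp3* (adjusted p = 0.0186), and 10.9% of all genes tested. *Nlrp3* alone of them was called without Tem1WT/WT traction replicate 1. It was also the only member called without any 1 of Tem1WT/WT sham replicates 1 to 3, Tem1lacZ/lacZ sham replicate 1, Tem1WT/WT traction replicates 2 and 3 or Tem1lacZ/lacZ traction replicate 3. Without Tem1lacZ/lacZ sham replicate 2 or 3, 0 were called, and without Tem1lacZ/lacZ traction replicate 2, *Gsdma* and *Nlrp3*. *Pycard* joined these 2 without Tem1lacZ/lacZ traction replicate 1.

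Windows from 250 bases before to 50 bases after an annotated start were taken from RefSeq (GRCm38.p6) for 6 of the 9 genes, the others not being analysed here: *Gsdma3*, *Nlrp3*, *Pycard*, *Casp1*, *Casp4* and *Aim2*. They were searched on both strands for the binding pattern of NF-kB, the factor that primes *Nlrp3*, for the letters TGANTCA of AP-1 sites, for TTCNNNGAA of STAT sites and for TATAAA. NF-kB letters occurred in both overlapping windows of *Casp4*, in the upstream and not the downstream window of *Nlrp3* and in the window of *Gsdma3*, and in 4.50% of 32817 promoters. The other patterns, found in 7.81%, 8.29% and 13.6% of promoters, did not occur in the members' windows. A window with a match is shown for each of these 3 genes because they comprise 2 genes with high values in the same traction scar and a gasdermin A gene that was lower with traction. Capitals mark the NF-kB letters, which overlap as a pair of matches in *Casp4*. The letters of *Nlrp3* and *Gsdma3* match the pattern on the strand opposite to the one printed. The 3 genes lie on the plus strand, with windows at chr11:59541319-59541618 for *Nlrp3*, chr9:5308599-5308898 for *Casp4* and chr11:98626099-98626398 for *Gsdma3*. A match of letters is no evidence of binding.
Nlrp3: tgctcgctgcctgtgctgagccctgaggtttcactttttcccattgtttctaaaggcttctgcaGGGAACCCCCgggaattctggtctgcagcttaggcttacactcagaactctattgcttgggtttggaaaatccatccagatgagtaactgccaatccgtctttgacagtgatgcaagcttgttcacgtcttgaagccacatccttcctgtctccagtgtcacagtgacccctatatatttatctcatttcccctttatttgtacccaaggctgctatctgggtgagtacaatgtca
Casp4: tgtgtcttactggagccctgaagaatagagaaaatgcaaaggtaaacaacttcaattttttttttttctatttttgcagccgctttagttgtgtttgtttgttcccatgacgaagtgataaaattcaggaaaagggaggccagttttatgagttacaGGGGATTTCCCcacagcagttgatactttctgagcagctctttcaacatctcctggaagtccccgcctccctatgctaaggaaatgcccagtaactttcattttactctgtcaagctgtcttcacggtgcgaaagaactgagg
Gsdma3: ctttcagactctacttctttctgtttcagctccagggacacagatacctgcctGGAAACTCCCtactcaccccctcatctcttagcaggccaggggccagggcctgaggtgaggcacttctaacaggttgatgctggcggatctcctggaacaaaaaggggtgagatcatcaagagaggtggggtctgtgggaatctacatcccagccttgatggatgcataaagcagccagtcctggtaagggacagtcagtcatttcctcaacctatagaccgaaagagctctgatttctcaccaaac

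A list of 38 other gasdermin, inflammasome and pyroptosis genes gave the surroundings of the 9 genes, and 35 of them were tested. With traction in Tem1WT/WT mice 5 of 35 were higher and 0 lower, where 9.15% of all genes tested were called, and the median log2 fold change of the 35 was 0.50. Without traction replicate 1 of that group, a fit added after the data were seen, *Mefv* and *Nlrp12* alone were called, at 2.16 ± 0.43 and 3.61 ± 0.71 (both with an adjusted p of 0.0441). Among sensors, *Nlrp12*, a leukocyte NLR protein, was at 0.456, 0.377 and 0.573 CPM in sham and 32.0, 10.1 and 1.46 CPM in traction scars (4.94 ± 0.93, SE, adjusted p = 0.0277). *Mefv*, which encodes the RhoA-guarding sensor pyrin, was at 4.91, 4.48 and 7.47 CPM in sham and 160.2, 38.4 and 12.1 CPM in traction scars (3.64 ± 0.74, adjusted p = 0.0300). Both had all traction scars above all sham scars. *Nlrp10*, the most abundant other sensor at a mean of 99.2 CPM and a gene of differentiating epidermis, was at −1.36 ± 0.43 (adjusted p = 0.0676).

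Among cytokine substrates, *Il1b* was at 5.90, 6.53 and 32.6 CPM in sham and at 3698, 86.0 and 84.9 CPM in traction scars of Tem1WT/WT mice. Its log2 fold change was 6.42 ± 1.70 (SE, adjusted p = 0.0432), and 2.49 ± 0.96 without replicate 1 (adjusted p = 0.134). *Il18*, the other caspase-1 substrate, was at −0.27 ± 0.43 (adjusted p = 0.703). *Ninj1*, which encodes the protein that ruptures the plasma membrane after pore formation, was at 53.6, 46.0 and 69.0 CPM in sham and 150.7, 99.3 and 97.8 CPM in traction scars (1.04 ± 0.27, adjusted p = 0.0396). The channel gene *Panx1* (0.61 ± 0.14, adjusted p = 0.0329) completed the 5. *Txnip*, the most abundant licensing gene with a mean of 378 CPM, and *Casp8*, the most abundant other caspase gene with 62.5 CPM, were at −0.42 ± 0.32 (adjusted p = 0.392) and 0.71 ± 0.21 (adjusted p = 0.0526). Of 3 inhibitors none was called by edgeR and 0 had an unadjusted p under 0.05. *Serpinb1a*, the most abundant of them at a mean of 63.9 CPM, was at 1.21 ± 0.66 (adjusted p = 0.235), and at −0.20 ± 0.42 without traction replicate 1 (adjusted p = 0.789).

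Of 5 other gasdermin genes tested, 0 were called for traction in Tem1WT/WT mice and 2 had an unadjusted p under 0.05. *Gsdmc*, another skin gasdermin and the most abundant of them at a mean of 179 CPM, was at −0.07 ± 0.50 (SE, adjusted p = 0.940). Averaged over both genotypes, *Nlrp12*, *Mefv* and *Il1b* were called higher and no listed gene lower. Without Tem1WT/WT traction replicate 1, *Il1b* was lost (2.33 ± 0.65, adjusted p = 0.0514) and *Gsdmc2* was called lower. The test for any difference among the 4 groups added *Ninj1* and *Gsdmc2*. *Gsdmc2* had its highest values in Tem1lacZ/lacZ sham scars, at 16.6, 8.04 and 8.62 CPM, above the 3.31 to 4.62 CPM of Tem1WT/WT sham and the 1.36 to 4.90 CPM of all traction scars (adjusted p = 0.0359). In Tem1lacZ/lacZ mice 0 of 35 were called with traction, and 3 had an unadjusted p under 0.05, as did 1530 of 18853 genes.

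**Figure D4:**
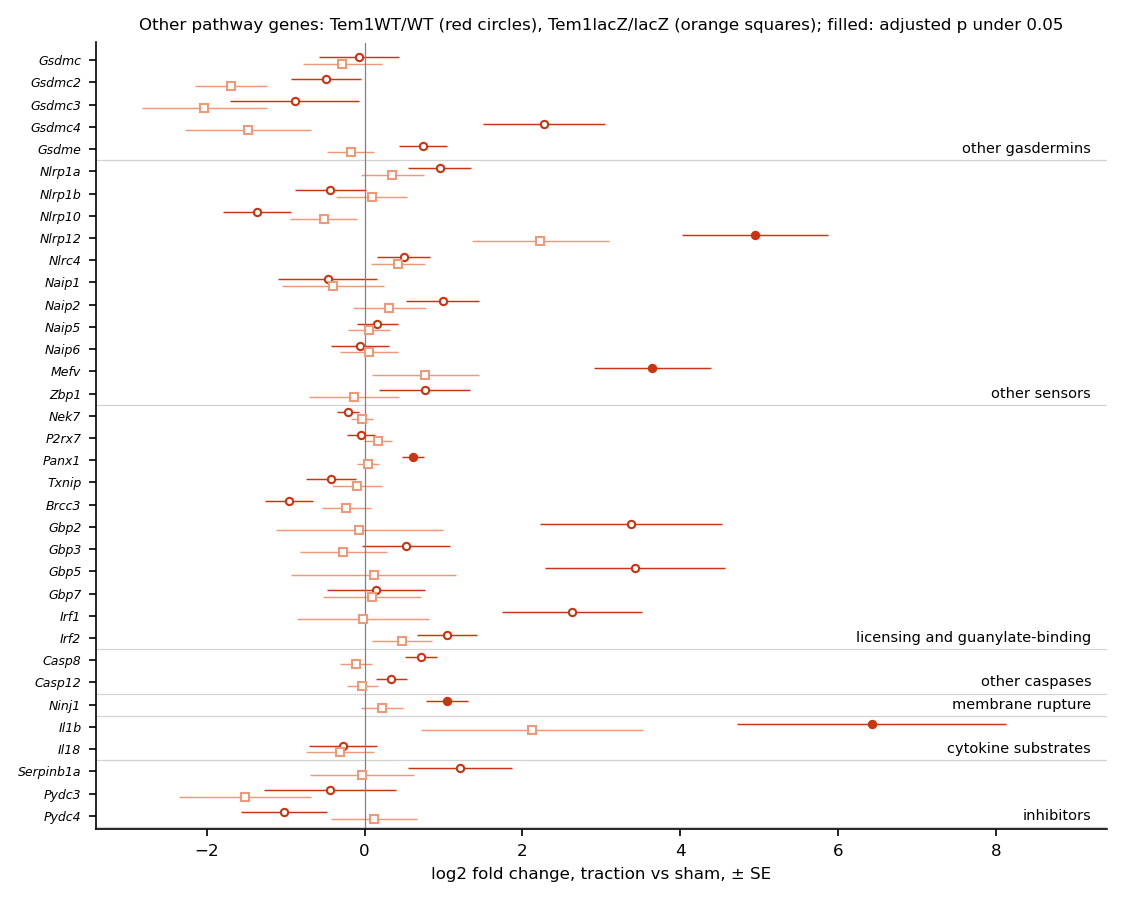
Log2 fold change of traction against sham ± SE for the 35 other pathway genes tested, grouped by role, in Tem1WT/WT (red circles) and Tem1lacZ/lacZ mice (orange squares); filled symbols have an adjusted p under 0.05. The 5 filled symbols, *Nlrp12*, *Mefv*, *Panx1*, *Ninj1* and *Il1b*, all lie to the right of 0 and belong to Tem1WT/WT mice.

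For each member the genes with the most similar pattern were sought among 13638 genes, by Pearson's r of log2 CPM over the 12 libraries. These coefficients describe libraries that fall into 4 groups. All include the scar with 501 CPM of *Nlrp3*, which was also the highest library for *Gsdmd*, *Casp4* and *Aim2*. Between members, r of *Nlrp3* with *Casp4* was 0.65 with that scar and −0.31 without it. For *Gsdmd* with *Nlrp3* it was 0.87 and 0.68. *Nlrp3* was most like *Slc2a3* (r = 0.990), *Sh2d3c* (0.986) and *Dennd3* (0.986). *Gsdmd* was most like *Sdcbp* (0.968), the leukocyte gene *Cd53* (0.967) and *Wfdc17* (0.963). *Gsdma* was nearest to *Pus10* (0.982), *Taf1b* (0.980) and *Nfe2l3* (0.974), *Gsdma2* to *Pxmp4* (0.969), *Btc* (0.964) and *Clca1* (0.958), and *Gsdma3* to *Defb6* (0.958), *Cxadr* (0.958) and *Cystm1* (0.957). No gene was shared between these short lists, and the members themselves were left out of the search. Between the gasdermin A genes r was 0.71 for *Gsdma* with *Gsdma2*, 0.79 for *Gsdma* with *Gsdma3* and 0.68 for *Gsdma2* with *Gsdma3*. *Pycard* was closest to *Car13* (0.979), *Slc25a17* (0.965) and *Sdr9c7* (0.962), *Casp1* to the mitochondrial *COX1* (0.968), *Syf2* (0.941) and *ND1* (0.936), *Casp4* to *Mctp2* (0.938), *Gripap1* (0.928) and *Fas* (0.922), and *Aim2* to *Gpr65* (0.923), *Igsf6* (0.922) and *Siglecf* (0.913).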

How the data were processed

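Scar RNA from 12 mice, 3 per group, was sequenced. Per the labels and the methods, the authors trimmed reads with fastp 0.20.0, aligned them to GRCm38 with HISAT2 2.1.0 and counted them with featureCounts 2.0.0. The authors deposited raw counts per gene without normalization. The annotation, strand and multimapping settings are not given in the sources used here.

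Counts were analysed in R 4.3.3 with edgeR 4.0.16: filterByExpr by group, TMM, and a robust quasi-likelihood fit of 4 groups (8 residual degrees of freedom). All tests were two-sided, with Benjamini-Hochberg adjustment over 18853 genes and a threshold of 0.05. DESeq2 1.42.0 and limma 3.58.1 were alternatives, together with other filters, scalings, a replicate block and leaving out each library. DESeq2 gave *Nlrp3* no adjusted p, which was left missing. Fits were also run on counts simulated without an outlying library, which cannot bear on calls that depend on single libraries. Library totals of 41536788 to 64644293 leave genes such as *Gsdma2* with few counts.

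The members, the pathway and marker lists and the naming rule were chosen with earlier results of these data known. Named were the 9 members, *Cd248*, each listed pathway gene called in any comparison and the most abundant gene of each role, marker sums, and the 3 genes most like each member. The other pathway genes are given as counts, and a further pathway gene is not reported here. *Il18*, *Ly6g*, *S100a8*, *S100a9*, *Gbp2*, *Gbp3*, *Gbp5*, *Gbp7* and *Irf1* were added after their values were seen. *Gsdme* is listed in the files as *Dfna5*. Correlations used a prior count of 2 and genes whose mean log2 CPM reached 1. Figures were drawn with matplotlib 3.10.9. Same-numbered libraries come from different mice, so the numbers were not read as pairing. Of 18 same-numbered pairs, 8 had correlated deviations with r over 0.1. The median r was 0.089 for these pairs and −0.019 for other pairs, so something shared by number is not excluded.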

Additional observations from a re-analysis of the deposited data

How the results depend on the processing

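Of 54 results for a member in a comparison, 43 kept their direction under every one of the 21 alternatives that gave a value, including the 8 called, and 11 reversed, each only with a library left out. For traction in Tem1WT/WT mice, 4 members called became 2 with all genes with at least 1 count, 2 with limma-voom, 0 with only the libraries compared, where no gene at all was called, 0 at an adjusted p under 0.01, and 0 to 4 with a library left out. For genotype with traction, 0 became 2 with DESeq2's Wald test and 0 to 1 with a library left out. Averaged over genotypes, 4 became 0 at 0.01 and 0 to 4 with a library left out. For any difference among the groups, 4 became 2 with limma-voom, 1 with the replicate block, 0 at 0.01 and 0 to 3 with a library left out. The block moved no other count by over 1.5 times, and 8 of 12 libraries correlated best with their own number. The cause was not tested.

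With a library left out, log2 fold changes ranged over 0 for *Casp1* with traction in Tem1WT/WT mice (−0.56 to 0.14), *Gsdmd* (−0.19 to 0.18) and *Pycard* (−0.53 to 0.12) with traction in Tem1lacZ/lacZ mice, *Gsdma3* (−0.032 to 0.91) and *Casp4* (−1.42 to 0.32) between genotypes with traction, *Gsdma2* between genotypes in sham (−0.43 to 0.87), *Casp4* with traction over both genotypes (−0.035 to 0.84), and, in the interaction, *Gsdma3* (−0.78 to 0.30), *Pycard* (−0.31 to 0.32), *Casp1* (−0.45 to 0.25) and *Aim2* (−0.50 to 0.024). The pathway genes called in Tem1WT/WT mice went from 5 to 2 without traction replicate 1, a fit chosen after seeing the data. *Gsdma2* could not be tested with at least 10 counts in every library. Upper quartile scaling moved the median of all genes to −0.12 with traction in Tem1WT/WT mice.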
